A study of Mus musculus with 6 samples.

Results

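The CREB family and its coactivators were examined in the hypothalamus of diet-induced obese (DIO) mice treated with GSK-J4 or vehicle. The members were 8 genes, namely the transcription factors Creb1, Crem and Atf1, the acetyltransferases Crebbp and Ep300, and the CREB-regulated coactivators Crtc1, Crtc2 and Crtc3. They were taken as all probes whose gene name in the scanner output equals 1 of these symbols, which gave 27 probes of 56605 on the array, where 37074 gene names are represented. Male C57BL/6J mice were fed a diet with 60 kcal% fat from 6 weeks of age for 16 weeks and then received GSK-J4 at 30 mg/kg or vehicle by intraperitoneal injection. GSK-J4 blocks the enzymes by which the H3k27me3 mark is taken off histones. Hypothalamic RNA from 3 mice in each group was hybridized, with 1 mouse per array, and tissue was taken at ZT 6 h, ZT being the time since lights on. The series description places the tissue on day 4 of exposure, whereas the methods describe a longer course of injections, so the day of the arrays is not settled.

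CREB and its close relatives are leucine zipper factors that bind the cAMP response element in promoters. When cAMP or calcium rises, kinases such as protein kinase A phosphorylate CREB, which then recruits the acetyltransferases CBP (Crebbp) and p300 (Ep300). CRTC proteins are kept in the cytoplasm while phosphorylated and, once dephosphorylated, enter the nucleus and join CREB on DNA. In hypothalamic neurons this pathway couples feeding and hormonal signals to the transcription of neuropeptide genes and immediate early genes.

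At the level of the whole family, few member probes were called, at a share near or below that of the array. Lack of a call does not show a lack of change. Of the 27 probes, 22 exceeded background clearly throughout the 3 arrays of a group (vehicle, GSK-J4 or both) and were tested, and every member gene had at least 1 of them. In the limma comparison of GSK-J4 with vehicle, 2 probes passed an adjusted p of at most 0.05, both lower, and 0 were higher, with 6 at an unadjusted p under 0.05, or fewer in proportion than the 36.5% of all tested probes. The 2 probes belong to Creb1 and Crtc3. They make up 9.09% of the 22, against 16.8% of all 34443 probes tested (8.4% lower and 8.38% higher), so the share of members called lower was close to that of the array and the share called higher was below it. At the fold and p thresholds of the study's methods (1.5-fold or more, p of at most 0.05), with the unadjusted p taken from limma, 3 member probes were lower and 0 higher, where 7.85% and 4.8% of all probes were. With p from the methods' t-test, 2 member probes were lower and 0 higher, and over all probes 1794 were lower and 1142 higher. The groups did not overlap for 9 member probes, 2 higher and 7 lower, while 45.6% of all probes had groups that did not overlap. The median log2 difference, GSK-J4 minus vehicle, was -0.09 over the 22 member probes and 0.02 over all probes tested. In whole tissue, fewer cells of a type and less RNA per cell cannot be told apart.

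Arrays labelled vehicle lay on slide 1 and in scan 1, and arrays labelled GSK-J4 on slide 2 and in scan 2, so effects of slide and of treatment cannot be told apart. Signal was weaker on the GSK-J4 arrays, on which 57.7% to 58.7% of probes were well above background, than on the vehicle arrays, with 62.8% to 63.6%. Before normalization, the 75th percentile of signal was 802, 916 and 787 on the vehicle arrays and 461, 453 and 406 on the GSK-J4 arrays. Hypothalamic content was described with 14 marker genes, which does not settle the identity of the tissue. Of these, Avp, Pmch, Trh, Sim1 and Otp had no probe that passed the background filter, and 9 were tested. The summed linear signal of the 9 was 4060, 4360 and 4440 on the vehicle arrays and 5780, 5640 and 6130 on the GSK-J4 arrays, with Npy the brightest. Pomc and Npy, precursors of neuropeptides of opposite effect on feeding, rose by 0.86 (adjusted p = 0.0221) and 0.42 (adjusted p = 0.0269) in 3 of 3 GSK-J4 arrays. No other marker of the 9 was called. Hcrt, Gal, Cartpt and Crh, at 0.81, 0.56, 0.52 and 0.41, had groups apart. Agrp, Oxt and Nr5a1, at 0.10, 0.09 and -0.30, had overlapping groups. The calls on Pomc and Npy were not examined with an array left out. Markers of the choroid plexus, a tissue of the brain ventricles next to the hypothalamus, set a single array apart. Their sum, in which Ttr was the brightest of 5 genes, was 103000 on vehicle array 1 against 2850 and 2990 on the other vehicle arrays, and 11700, 2430 and 5360 on the GSK-J4 arrays. The summed markers of neurons, astrocytes, oligodendrocytes, endothelium, thalamus and red blood cells overlapped between groups, as did Lhb, the single pituitary gene of 6 that was measured. The microglial sum, over 4 of 5 markers and led by Csf1r, was 5950 to 6760 with vehicle and 7770 to 8090 with GSK-J4, although 0 of the 5 genes was called in the limma fit. The part of these cell types in the member results was not tested.

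Creb1 encodes CREB itself, and its probes disagreed. The probe that fell, A_55_P2910506, lies at chr1:64605345-64605401 of mm9 on the + strand, was designed on an Ensembl transcript record and has 35% GC. Its log2 signals were 6.02, 5.71 and 5.97 on the vehicle arrays and 4.84, 5.27 and 5.21 on the GSK-J4 arrays. All 3 GSK-J4 arrays were below all 3 vehicle arrays, with the lowest signal on GSK-J4 array 1. The difference was -0.79 ± 0.15 (SE, n = 3 per group; adjusted p = 0.0273 in limma), which corresponds to 1.73-fold more signal with vehicle. The probe that represents Creb1 where 1 probe per gene name was used, A_55_P2804962 at chr1:64648353-64648412 with 35% GC, was designed on a RefSeq transcript. Its log2 signals were 10.09, 10.14 and 10.33 with vehicle and 9.95, 9.82 and 10.35 with GSK-J4. These groups overlapped, GSK-J4 array 3 holding the highest value of all, and the difference of -0.15 ± 0.16 did not pass the test (adjusted p = 0.533). The initial 30 of 60 bases of each probe are shown since these probes carry the disagreement within Creb1, and no base is singled out in them.
Creb1 A_55_P2910506: gagtatgttgtatctgcatagttctgttat
Creb1 A_55_P2804962: cagacagactttaacaaggaccagataaca

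The other Creb1 probes added a difference in the opposite direction. A_55_P2114427, at chr1:64651061-64651120 with 35% GC, read 6.78, 6.99 and 5.87 with vehicle and 7.28, 7.12 and 7.24 with GSK-J4. Vehicle array 3 was far below the other vehicle arrays, and although the groups did not overlap, the difference of 0.67 ± 0.29 did not pass the test (adjusted p = 0.158), and it was 0.33 without that array. A_52_P174396 (chr1:64643886-64643945, 38.3% GC) and A_52_P517730 (chr1:64644633-64644692, 35% GC) had overlapping groups and differences of 0.05 and 0.23. A further Ensembl probe, A_52_P722709 (chr1:64607980-64608039, 40% GC), was well above background on 1 vehicle array and on 0 GSK-J4 arrays and was not tested. The 5 Creb1 probes tested thus spanned log2 differences from -0.79 to 0.67. Within each array, the log2 ratio of A_55_P2910506 to A_55_P2804962, centred on the vehicle mean, was 0.22, -0.15 and -0.07 with vehicle and -0.82, -0.26 and -0.85 with GSK-J4. The ratio was lower on every GSK-J4 array, by 0.65 on average (difference -0.65). This pair and the pairs of Crtc3 and Crebbp were chosen because their probes disagreed, so their ratios restate the disagreement and are not a test of it.

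The call on Creb1 was lost under some alternatives. With normexp background correction the difference of A_55_P2910506 shrank to -0.30 (adjusted p = 0.0759), and after a correction for GC content it was -0.60 (adjusted p = 0.0567). Leaving out vehicle array 1, 2 or 3 gave adjusted p = 0.0832, 0.071 and 0.0939 with differences from -0.89 to -0.73, so the direction held in each case and the call did not. These losses were shared by the whole array, where 10, 13 and 5 probes were called without these arrays, against 5781 with all 6.

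Crem, the cAMP response element modulator, yields both activators and repressors of the same promoters, including the inducible repressor ICER. Of its 5 probes, all on the - strand of chromosome 18, 2 were tested. A_52_P460957 (chr18:3267671-3267730, 45% GC) had log2 signals of 9.22, 9.38 and 9.55 with vehicle and 9.53, 9.30 and 9.46 with GSK-J4. A_51_P423976 (chr18:3267049-3267108, 35% GC) had signals between 9.24 and 9.41 with vehicle and between 9.15 and 9.34 with GSK-J4. Both pairs of groups overlapped, with differences of 0.04 ± 0.11 and -0.05 ± 0.09, and neither probe was called. The remaining probes were not tested: A_55_P2796359 (chr18:3294679-3294738, 35% GC) was well above background on 1 vehicle array and no GSK-J4 array, and A_55_P2177904 (chr18:3283995-3284054, 38.3% GC) and A_52_P367026 (40% GC) on none of the 6. The position of A_52_P367026, chr18:3295393-3299197, spans 3805 bases although the probe has 60, as for a probe laid across a splice junction.

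Atf1 completes the family and can pair with CREB on the same element. All 4 of its probes had lower means with GSK-J4 and 0 of them were called. The representative probe, A_52_P32756 (chr15:100091253-100091312, 36.7% GC), read 9.46, 9.44 and 9.35 with vehicle and 9.22, 9.30 and 9.34 with GSK-J4, a difference of -0.13 ± 0.07 (adjusted p = 0.258) with groups that did not overlap. A_55_P2159994, also designed on the RefSeq record of Atf1, is placed by the files at chrX:51185510-51185569 (35% GC), and its difference was -0.20 ± 0.07 (adjusted p = 0.102). Its listed position is not at the Atf1 locus, and whether it measures Atf1 was not tested. The difference was -0.27 for A_55_P2721419 (chr15:100063165-100063224, 45% GC), with overlapping groups. It was -0.46 for A_55_P2071472 (chr15:100093285-100093344, 43.3% GC), designed on a GenBank record, which was well above background on 2 of 3 GSK-J4 arrays and read 4.09 on GSK-J4 array 1 against 5.19 and 5.32 on the others. Without GSK-J4 array 1 these differences were -0.0587 for A_55_P2721419 and -0.0695 for A_55_P2071472, and after the GC correction A_52_P32756 and A_55_P2159994 were at -0.0031 and -0.0066.

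**Figure D1:**
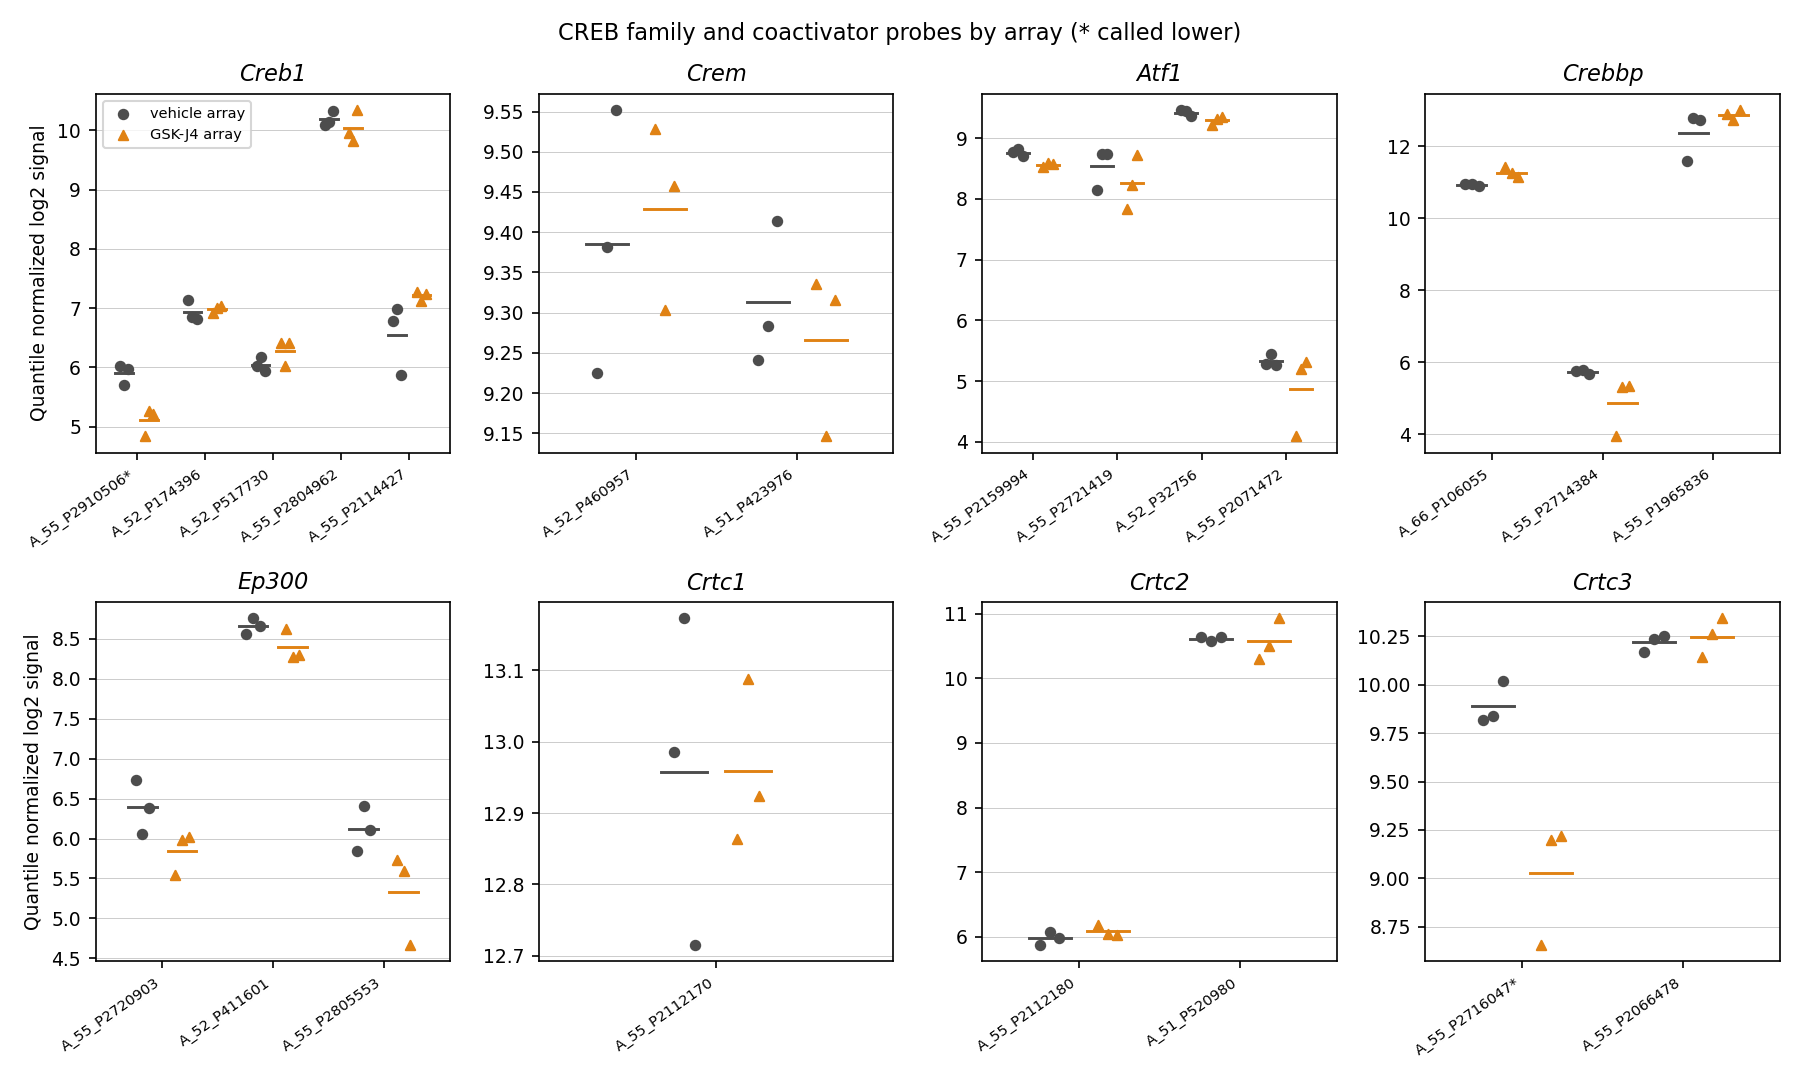
Quantile normalized log2 signal of the 22 tested member probes on each array, 1 panel per gene, with circles for the 3 vehicle arrays, triangles for the 3 GSK-J4 arrays, bars for the group means and y axes that differ between panels. The probes with an asterisk, of Creb1 and Crtc3, were called lower, while the single probe of Crtc1 has group means of 12.96 and 12.96.

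Crebbp encodes CBP, the acetyltransferase that phosphorylated CREB recruits, and none of its 3 probes was called. A_66_P106055 (chr16:4094241-4094300, 45% GC) read 10.96, 10.95 and 10.90 with vehicle and 11.42, 11.26 and 11.14 with GSK-J4. Every GSK-J4 array was above every vehicle array, and the difference of 0.34 ± 0.09 missed the threshold (adjusted p = 0.0591). It was past it with scaling to the 75th percentile (0.45, adjusted p = 0.0253), with normexp (0.28, adjusted p = 0.0387) and among probes well above background on all 6 arrays (adjusted p = 0.0498). It was further from it with the GC correction (0.28, adjusted p = 0.113) and without a filter on dim probes (adjusted p = 0.0855). The same held with the replicate number as a block (adjusted p = 0.111) and with the methods' t-test (adjusted p = 0.183). The representative probe, A_55_P1965836 (chr16:4084710-4084769, 55% GC), read 11.59, 12.80 and 12.73 with vehicle and 12.89, 12.74 and 13.01 with GSK-J4. Its difference of 0.51 ± 0.34 (adjusted p = 0.322) rested on vehicle array 1, the array with the highest choroid plexus sum, and was 0.12 without it. The part of that sum in this value was not tested. A_55_P2714384 (chr16:4086785-4086844, 45% GC), on an Ensembl record, went the other way, with 5.76, 5.78 and 5.69 with vehicle and 3.95, 5.33 and 5.35 with GSK-J4. It was well above background on 2 of 3 GSK-J4 arrays, and its difference of -0.87 ± 0.39 (adjusted p = 0.167) was -0.41 without GSK-J4 array 1. Its within-array log2 ratio to A_66_P106055, centred on the vehicle mean, was -2.28, -0.74 and -0.60 with GSK-J4, so that much of the mean of -1.21 came from GSK-J4 array 1.

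The 3 Crebbp probes are shown by their initial 30 bases, because the 1 that tells vehicle array 1 apart is a repeat. In A_55_P1965836 the capitals mark CAG triplets that follow each other directly, and the whole probe holds 11 CAG triplets, a sequence that other transcripts with such repeats can also carry. No base is singled out in the others.
Crebbp A_55_P1965836: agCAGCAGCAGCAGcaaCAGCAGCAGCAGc
Crebbp A_66_P106055: tgtcggaatctttcccatatcgtaccaaag
Crebbp A_55_P2714384: tgtgagtacgcatatttgtgtgtatgagca
Among the 6 tested probes with at least 5 CAG triplets in a row, vehicle array 1 minus the mean of the other vehicle arrays had a median of -0.16, against -0.01 over all tested probes, while the Crebbp probe was at -1.18.

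Ep300 encodes p300, the close relative of CBP. Its 3 tested probes all had lower means with GSK-J4 and 0 were called in limma. A_55_P2805553 (chr15:81482336-81482395, 35% GC) was past 1.5-fold with an unadjusted limma p of 0.0444. It read 5.85, 6.41 and 6.11 with vehicle and 5.73, 5.59 and 4.67 with GSK-J4, with no overlap and the lowest signal on GSK-J4 array 3. The difference was -0.79 ± 0.31 (adjusted p = 0.127), and -0.47 without that array. A_55_P2720903 (chr15:81418667-81418726, 35% GC), on an Ensembl record, differed by -0.54 ± 0.21 (adjusted p = 0.129) with groups apart, and the representative probe, A_52_P411601 (chr15:81481567-81481626, 35% GC), by -0.26 ± 0.12 (adjusted p = 0.183) with overlap. The last Ep300 probe, A_51_P142128 (chr15:81454074-81454133, 35% GC), did not exceed background clearly on any of the 6 arrays and was left untested.

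Crtc3 held the second member probe that fell. CRTC proteins are the sensors through which CREB activity follows calcineurin and the salt-inducible kinases. A_55_P2716047, designed on an Ensembl record at chr7:87818156-87818215 on the - strand with 45% GC, read 9.82, 9.84 and 10.02 with vehicle and 8.66, 9.20 and 9.22 with GSK-J4. The groups were apart on all 6 arrays, again with the lowest signal on GSK-J4 array 1. The difference was -0.87 ± 0.17 (adjusted p = 0.0299), or 1.82-fold more signal with vehicle. The RefSeq probe of the gene, A_55_P2066478 (chr7:87731571-87731630, 35% GC), read 10.17, 10.24 and 10.25 with vehicle and 10.14, 10.26 and 10.34 with GSK-J4, so that its groups overlapped and its difference was 0.03 ± 0.08 (adjusted p = 0.82). Within each array, the centred log2 ratio of the probe that fell to the RefSeq probe was -0.02, -0.07 and 0.09 with vehicle and -1.16, -0.74 and -0.79 with GSK-J4, a difference of -0.90 that restates how the pair was chosen. The initial 30 bases of both are given for the same reason as for Creb1.
Crtc3 A_55_P2716047: tctctctgagcctgaggttaggtcggatgg
Crtc3 A_55_P2066478: cggccttttgttaagcaatattgaaagatc
The call was lost without vehicle array 1, 2 or 3 (adjusted p = 0.081, 0.0933 and 0.0989, differences from -0.90 to -0.80), and without a filter on dim probes (adjusted p = 0.0538).

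Crtc1 and Crtc2 did not pass the test. Crtc1, the CRTC that is abundant in neurons, had a single probe, A_55_P2112170 (chr8:72906260-72906319, 35% GC), which read 12.99, 13.17 and 12.72 with vehicle and 12.86, 13.09 and 12.92 with GSK-J4. Its difference was 0.00 ± 0.14 (adjusted p = 0.998). For Crtc2, best known from the liver response to glucagon, A_51_P520980 (chr3:90067812-90067871, 45% GC) differed by -0.04 ± 0.17 and A_55_P2112180 (chr3:90066577-90066636, 51.7% GC) by 0.11 ± 0.09, both with overlapping groups. On A_51_P520980 the GSK-J4 arrays were spread from 10.29 to 10.93 around vehicle arrays that lay between 10.57 and 10.64.

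**Figure D2:**
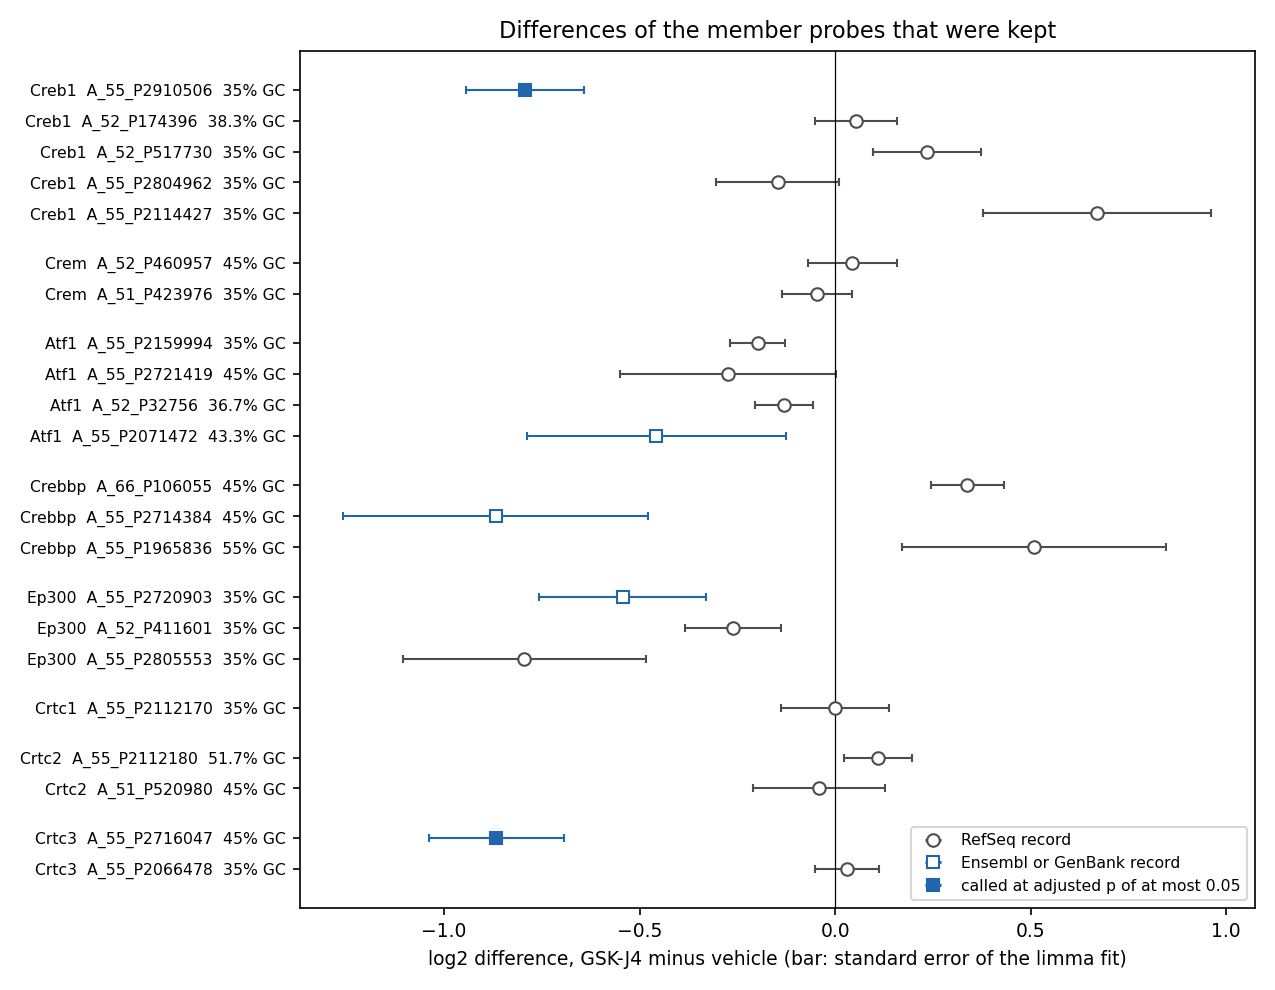
Log2 difference, GSK-J4 minus vehicle, of each tested member probe with the standard error of the limma fit (3 arrays per group) and its GC content. Filled symbols were called, and the 5 squares (Ensembl or GenBank records) lie between -0.87 and -0.46 while the 17 circles (RefSeq records) lie between -0.79 and 0.67.

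The 2 called member probes were both designed on Ensembl records. Member probes were grouped by kind of record after their values were seen, as a description. Lower readings were not limited to such records, since the Ep300 probe A_55_P2805553, on a RefSeq record, was at -0.79. The 17 tested member probes on RefSeq records were 9 with a higher and 8 with a lower mean, with a median difference of 0.00, and 0 were called in limma, with 3 at an unadjusted p under 0.05. The 5 on Ensembl or GenBank records, from Creb1, Atf1, Crebbp, Ep300 and Crtc3, all had lower means, with a median of -0.79, and 2 were called. Those of Atf1 and Crebbp were well above background on 2 of 3 GSK-J4 arrays. They passed the filter through the vehicle arrays alone, which favours a lower mean with GSK-J4. Without GSK-J4 array 1 the differences of the 5 probes were -0.66, -0.0695, -0.41, -0.39 and -0.68 in that order. With normexp they were -0.30, -0.0959, -0.27, -0.38 and -0.86. The same split ran through the whole array. Of 22884 tested probes on RefSeq records 4.43% were called lower and 9.07% higher, with a median difference of 0.06, and of 11559 on other records 16.3% were lower and 7.02% higher, with a median of -0.12. These include probes kept through 1 group alone, and the split was not repeated among the 30940 probes well above background on all 6 arrays. In 3671 gene names with tested probes of both kinds, the other probes lay below the RefSeq probes in 70.6%, by a median of -0.26. The lower readings of these 5 member probes were thus shared with many probes on other records outside the CREB family. These other records are wider than those of the 5, since they also take in predicted RefSeq records. In gene names that have a RefSeq probe, 19.9% of 4813 probes on other records were called lower, with a median of -0.24. Whether the lower readings of the 5 come from other transcripts of the same genes was not tested, since no gene models of the build of the probes were used here.

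The split by record was also described at fixed GC content and by brightness. At 35% GC, the content of the Creb1 probe that fell, 28.7% of probes on other records were called lower against 8.54% on RefSeq records, with medians of -0.37 and -0.09. At 45% GC, the content of the Crtc3 probe, the shares were 12% and 3%. When tested probes were split into 3 equal parts by mean signal, in the dimmest part 15.5% on other records and 3.32% on RefSeq records were lower. In the middle part the shares were 20.3% and 4.53%. They were 11.2% and 4.97% in the brightest part, where the medians lay close together at 0.02 and 0.03. Over all tested probes the difference was larger at higher GC content (r = 0.325 across 34443 probes, which are not independent), whereas over the 22 member probes r was 0.155.

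**Figure D3:**
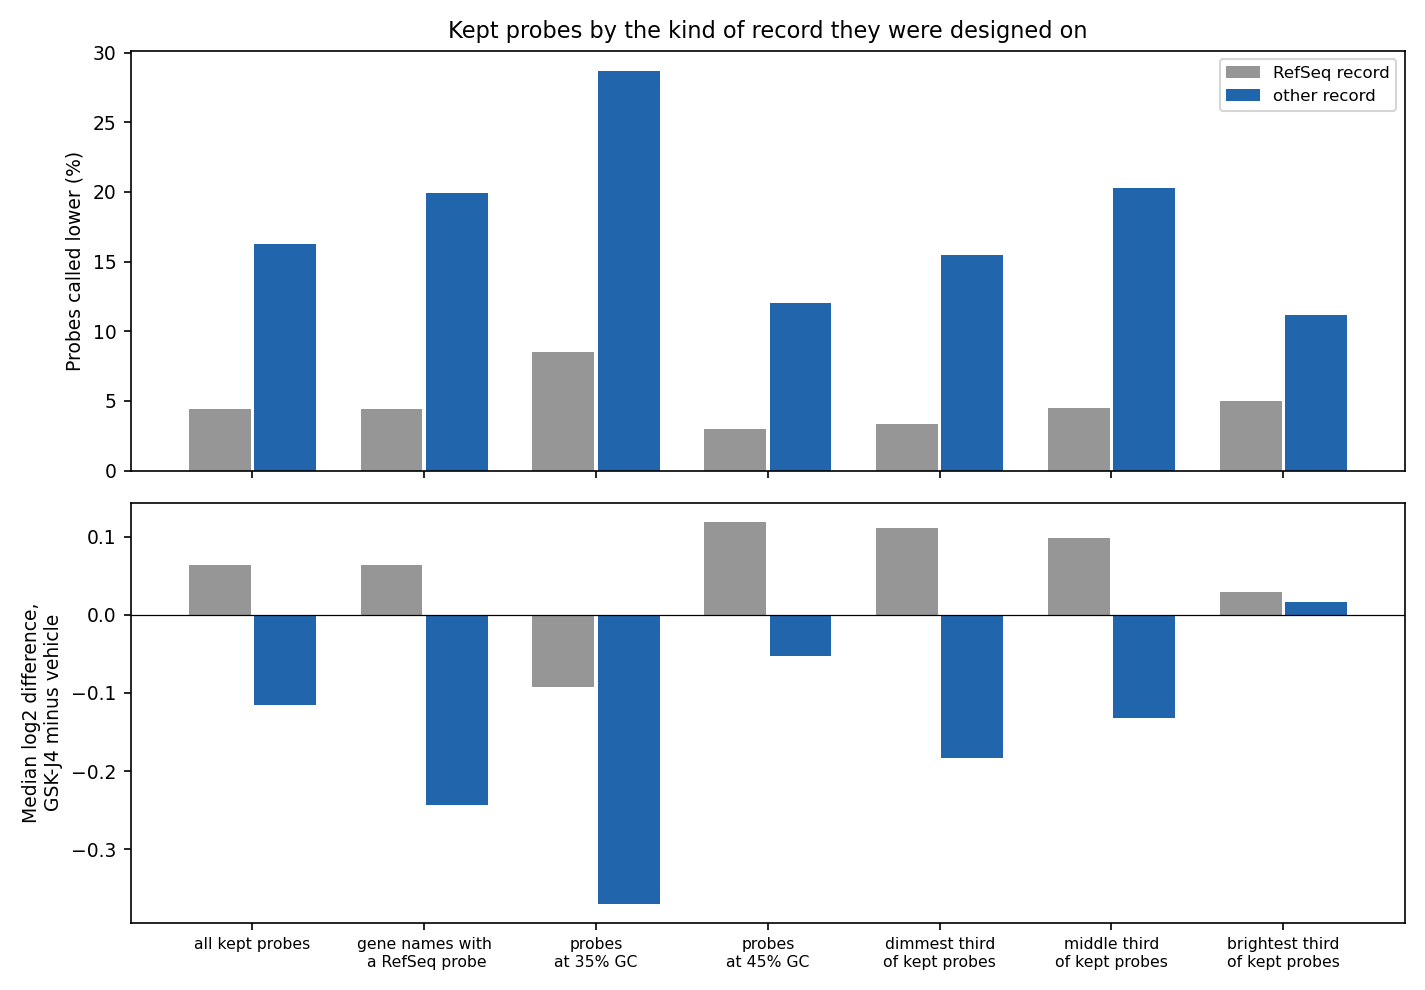
Share of tested probes called lower with GSK-J4 (upper panel, percent) and median log2 difference (lower panel) for probes on RefSeq records (grey) and on other records (blue), in all tested probes, gene names with a RefSeq probe, fixed GC contents and 3 equal parts by mean signal. In each set the other records were called lower more often, and the gap between the medians is smallest in the brightest part, 0.02 against 0.03.

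Correlations between members ran in both directions. Over the 6 arrays, the Pearson correlation of the probes that represent 2 members ranged from -0.691 (Crem and Crtc1) to 0.803 (Crtc2 and Crtc3), and that of Creb1 was 0.751 with Crtc2 and 0.127 with Crebbp. With 6 arrays of 2 groups these are descriptions, and those of Crebbp use the repeat probe, which was lowest on vehicle array 1. Among 22092 other gene names, the representative Creb1 probe was most alike to Zw10 (r = 0.995), B930095G15Rik (r = 0.993) and a noncoding region of chromosome X (probe A_30_P01019994, r = 0.99), and none of the 3 was called.

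The genes that surround CREB were described in 6 lists, with 1 probe per gene name, and genes of the lists that are named without a call were picked by their values or after these were seen. Of all 22117 gene names so represented, 8.59% were higher and 7.56% lower, and their median difference was 0.04. Among 16 CREB and ATF relatives, which include the ER stress factors Atf4 and Atf6, 1 gene rose and 0 fell, with a median of 0.10. It was Atf5, a stress-responsive factor, whose log2 signals were 12.91, 12.87 and 12.82 with vehicle and 13.20, 13.22 and 13.27 with GSK-J4. All GSK-J4 arrays were above all vehicle arrays, by 0.36 ± 0.07 (adjusted p = 0.0271), and a further RefSeq probe of Atf5 was at 0.17 (adjusted p = 0.173). Atf4, the translationally controlled factor of the same branch, was at 15.35 and 15.34 on average and did not pass the test.

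Of 11 other coactivators, 1 rose and 1 fell and 9 were not called, with a median of 0.14. Taf4a, the TFIID subunit through which CREB contacts the general transcription machinery, fell by 0.48 ± 0.09 (adjusted p = 0.025), from 10.77, 10.77 and 10.78 to 10.15, 10.37 and 10.36. A further RefSeq probe of Taf4a fell by 1.12 (adjusted p = 0.0295). Cited4, a small partner of CBP and p300, rose by 1.28 ± 0.32 (adjusted p = 0.0479), from 6.83, 7.15 and 7.38 to 8.96, 7.77 and 8.49, with groups apart.

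Upstream of CREB, 0 of 17 kinase genes was called in either direction in limma on the representative probes, with a median of 0.04, 4 at an unadjusted p under 0.05 and 5 with groups that did not overlap. Over all gene names 35.6% were at that p and 45.5% did not overlap, larger shares than among the kinases. In the other lists apart from the targets, these 2 counts were 4 and 8 of 16 relatives and 3 and 4 of 11 other coactivators. They were 4 and 5 of 9 regulators of the CRTC proteins and 7 and 7 of 13 genes that limit cAMP and CREB. With 75th percentile scaling 6 kinase genes were called higher, among them Camk1 (0.55, adjusted p = 0.0498), in a fit that called 5036 probes of the array higher against 2888 here. The 2 with the largest differences act in the same cascade. Camkk1, which phosphorylates the CaM kinases, differed by -0.62 ± 0.18 (adjusted p = 0.063), and its substrate Camk1 by 0.56 ± 0.16 (adjusted p = 0.0605), each with all 3 GSK-J4 arrays on 1 side of the vehicle arrays. Camkk1 was the single kinase gene past the methods' thresholds, with 1.54-fold more signal with vehicle at an unadjusted limma p of 0.0131. With 75th percentile scaling Camkk1 was at -0.26 (adjusted p = 0.32), and an Ensembl probe of Camk1 was at -0.33 (adjusted p = 0.405). Protein kinase A subunits showed how much the choice of probe matters. Prkaca, its main catalytic subunit, differed by 0.14 (adjusted p = 0.21) on the representative probe, while a further RefSeq probe of 55% GC rose by 0.78 (adjusted p = 0.0144). Prkar1a and Prkar1b, regulatory subunits, each had a RefSeq probe that rose (0.37, adjusted p = 0.0245, and 0.44, adjusted p = 0.0318) while their representative probes were at 0.0446 (adjusted p = 0.685) and 0.0847 (adjusted p = 0.535), and an Ensembl probe of Prkar1a was at -0.37 (adjusted p = 0.211). These probes were named after their values were seen.

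Regulators of the CRTC proteins included genes on both sides of their switch. Of 9 genes, 2 rose and 1 fell, with a median of -0.07. Ppp3cc, a catalytic subunit of calcineurin, the phosphatase that releases CRTC to the nucleus, fell by 0.43 ± 0.07 (adjusted p = 0.0221), from 10.14, 10.10 and 10.23 to 9.71, 9.75 and 9.72, while a further RefSeq probe was at -0.10 (adjusted p = 0.533). Stk11 (LKB1), the kinase upstream of the salt-inducible kinases, rose by 0.39 ± 0.08 (adjusted p = 0.0294), and Mark2, which can phosphorylate Crtc2, rose by 0.34 ± 0.08 (adjusted p = 0.0477), both on 3 of 3 arrays. The salt-inducible kinases themselves, Sik1, Sik2 and Sik3, differed by 0.13, -0.07 and 0.08 with overlapping groups.

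Of 13 genes that limit cAMP and CREB, 1 rose and 2 fell, with a median of -0.06, and 4 were called higher and 2 lower with 75th percentile scaling. Pde4c, a phosphodiesterase that degrades cAMP, read 14.37, 14.45 and 14.33 with vehicle and 13.79, 13.78 and 13.79 with GSK-J4, and fell by 0.60 ± 0.07 (adjusted p = 0.0145). Pkia, an inhibitor peptide of protein kinase A, fell by 0.58 ± 0.09 (adjusted p = 0.0217), from 11.71, 11.74 and 11.63 to 10.99, 11.26 and 11.08. Pde4d, another phosphodiesterase of the family, rose by 0.84 ± 0.18 (adjusted p = 0.0335) on the representative RefSeq probe and by 0.93 (adjusted p = 0.0198) on a further RefSeq probe, whereas a probe on a GenBank record fell by 1.95 (adjusted p = 0.015). The other tested probes of Pde4d were at 0.24 and -0.06 on RefSeq records and at -0.64 on an Ensembl record, none of them called.

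CREB target genes were the readout of the pathway that the array could offer. Of 26 textbook targets 25 were tested, Trh being too close to background. In limma 0 rose and 2 fell, with 9 at an unadjusted p under 0.05 (35.6% of all gene names), a median of 0.07 and 10 with groups that did not overlap (45.5% of all gene names). With 75th percentile scaling 3 targets were called higher and 1 lower. Per2, a clock gene with a cAMP response element, fell by 0.33 ± 0.08 (adjusted p = 0.0421), from 11.87, 11.79 and 11.82 to 11.48, 11.42 and 11.60, while a further RefSeq probe of Per2 was at 0.11 (adjusted p = 0.599). Ptgs2, the inducible prostaglandin synthase COX-2, fell by 0.78 ± 0.20 (adjusted p = 0.0496), from 9.24, 9.42 and 9.17 to 8.07, 8.77 and 8.64. The immediate early genes did not move as a block: Fos, Junb, Egr1 and Nr4a1 differed by -0.28, -0.13, -0.28 and -0.17, and Fosb, Nr4a2 and Nr4a3 by 0.46, 0.38 and 0.28, and none of the 7 was called. Kiss1, a neuropeptide gene, was the single target at least 1.5-fold higher at an unadjusted limma p of at most 0.05, with 1.02 (adjusted p = 0.057). It was well above background on 2 of 3 vehicle arrays, so its difference is read against signals partly at background, and it was named after its value was seen.

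**Figure D4:**
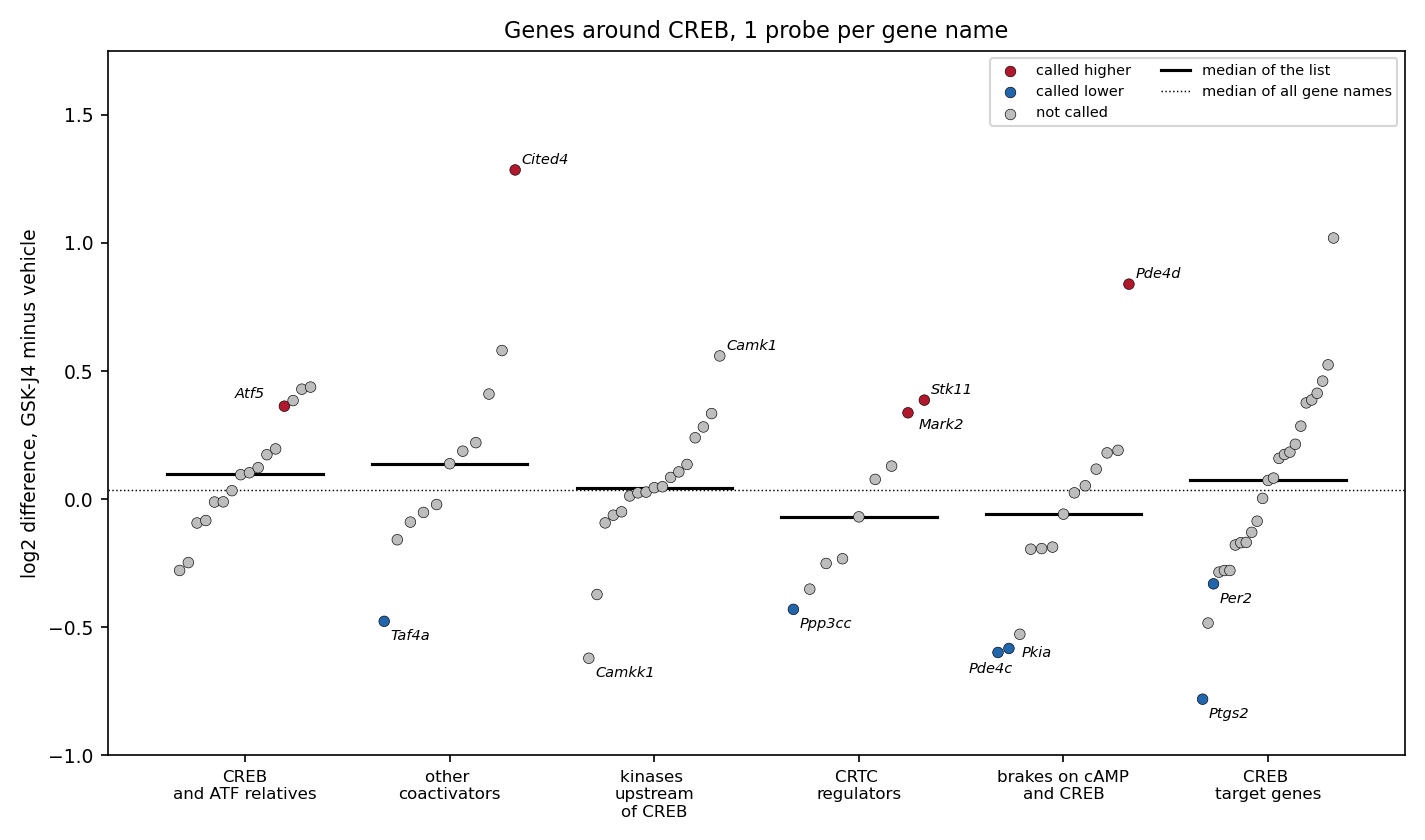
Log2 difference, GSK-J4 minus vehicle, of each gene in 6 lists around CREB, with 1 probe per gene name and genes ordered by value within a list. Red points were called higher and blue points lower, thick lines are list medians, the dotted line is the median of all gene names, 0.04, and Cited4 at 1.28 is the highest value.

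These calls in the lists were sensitive to normalization, base composition and single arrays. After the GC correction 8 of the 11 called genes were no longer called. Mark2 was then at 0.15, Stk11 at 0.20, Per2 at -0.14 and Ppp3cc at -0.24, while Pkia at -0.39 (adjusted p = 0.0501) and Taf4a at -0.35 (adjusted p = 0.0515) lay near the threshold. Cited4 was at 1.04 (adjusted p = 0.0844) and Ptgs2 at -0.59 (adjusted p = 0.105). The calls that remained were Atf5, Pde4c and Pde4d (adjusted p = 0.0449, 0.0315 and 0.0484). With 75th percentile scaling Pde4c was at -0.28 (adjusted p = 0.0531) and Per2 at -0.20 (adjusted p = 0.109), and with normexp Ppp3cc was at -0.33 (adjusted p = 0.123), all without a call, whereas 75th percentile scaling added calls on the higher side among relatives (2 against 1), kinases, brakes and targets. Without vehicle array 1, 2 or 3, all 11 lost the call, with adjusted p from 0.0586 for Pde4c without vehicle array 1 to 0.145 for Ptgs2 without vehicle array 2, and each kept its direction. Differences then stayed near those with all arrays, as at 0.34 to 0.39 for Atf5, -0.63 to -0.56 for Pde4c and 1.14 to 1.41 for Cited4. Without GSK-J4 array 1, 2 or 3, 8, 5 and 6 of the 11 lost it, and Atf5 (adjusted p = 0.0559, 0.0546 and 0.0523), Stk11, Mark2 and Ptgs2 did so each time. Over the whole array, nearly all calls were lost without a vehicle array. With GSK-J4 array 1, 2 or 3 left out, 979, 2074 and 1536 probes were still called higher and 1428, 2078 and 2483 lower.

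The cAMP response element itself was looked for in the promoters of members and targets, as RefSeq places them on GRCm38.p6. Both strands of 300 bases around each gene start were searched for the full palindrome TGACGTCA and for its shorter core, TGACG or CGTCA, which the palindrome contains. Of the 8 members 6 matched, all but Crem and Crtc2, and 0 held the palindrome, while 1, Atf1, held the core. Over all 27025 genes with an entry, 2.03% held the palindrome and 23% the core. Of the 26 targets 21 matched, and 5 held the palindrome and 19 the core (23.8% and 90.5%); targets were listed as textbook genes known in part by this element. The 5 windows of 30 bases are shown because CREB, CREM and ATF1 proteins share this motif, which is in capitals.
Sst, chr16:23890874-23890903, - strand: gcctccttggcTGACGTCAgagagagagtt
Th, chr7:142900022-142900051, - strand: cagaggggcttTGACGTCAgcctggccttt
Scg2, chr1:79440076-79440105, - strand: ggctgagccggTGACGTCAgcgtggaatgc
Cartpt, chr13:99900777-99900806, - strand: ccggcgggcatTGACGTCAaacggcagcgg
Dusp1, chr17:26508597-26508626, - strand: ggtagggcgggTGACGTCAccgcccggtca
The element began 48 bases before the gene start in Sst, 45 in Th, 68 in Scg2, 112 in Cartpt and 143 in Dusp1. With GSK-J4 these genes differed by 0.08, 0.39, -0.18, 0.52 and 0.17, and none was called. Their median was 0.17, and that of the 15 tested targets with an entry but without the palindrome was 0.00, of which 1 was lower. A match describes letters in the window and does not show binding.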

How the data were processed

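The 6 arrays were Agilent mouse arrays with 1 RNA sample each. The authors deposited scanner output with a background-corrected intensity for each spot (Agilent Feature Extraction 10.7.1.1) and a table of log2 values, which the methods describe as quantile normalized. The medians of the 6 deposited log2 columns were all 5.74, and the member differences taken from that table lay within 0.0011 of those given here. From the intensities, controls and the 1172 spots that the scanner software marked as outliers were dropped, replicate spots were averaged on the log2 scale and arrays were quantile normalized. Of 56605 probes, the 34443 well above background on all 3 arrays of a group were kept. Groups were compared with lmFit and eBayes of limma 3.58.1 (R 4.3.3, data.table in version 1.17.8), two-sided and without covariates, with Benjamini-Hochberg adjustment over all kept probes. Probe positions and GC content are those of the files (mm9). The fit was tested on simulated data. In lists, a gene was represented by the kept probe whose mean over all 6 arrays was highest. Of each list, called genes whose groups did not overlap were named, at most 4, or, with none called, the 2 with the largest difference. The members and lists were chosen with earlier results of these data known. The number of arrays limits the precision. Figures were drawn with matplotlib.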

Additional observations from a re-analysis of the deposited data

How the results depend on the processing

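The direction of the 2 called member probes held under every alternative run. The deposited log2 table gave the same calls. For Creb1 A_55_P2910506 the difference ranged from -0.92 to -0.30 (adjusted p 0.0181 to 0.139) and for Crtc3 A_55_P2716047 from -0.96 to -0.68 (adjusted p 0.0145 to 0.154). The number of member probes called lower (2) was 1 with normexp (Crtc3), without a filter on dim probes (Creb1) and with the GC correction (Crtc3), and 0 with the methods' t-test, with 1 probe per gene name, which leaves both probes out, with the replicate number as a replicate block (adjusted p = 0.0914 and 0.0807) and with block and GC correction together. Leaving out an array gave 0 to 2. The number called higher (0) was 1, Crebbp A_66_P106055, with 75th percentile scaling, with normexp and among probes well above background on all 6 arrays. With the limma p at the methods' thresholds, 1 probe was higher with the GC correction with or without the block and 0 to 1 with an array left out, and 5 were lower with 75th percentile scaling, 1 with normexp and 0 with 1 probe per gene name. Whether replicate numbers pair these mice was not settled. Deviations of arrays with the same number correlated at 0.00741, 0.0258 and 0.0817, and those of arrays with unlike numbers at -0.098 to 0.0934. With 3 arrays per group, these values cannot tell paired from unpaired mice. The block brought all calls on the array to 0 and 0. Without the replicate 1 array of both groups, an alternative chosen after the choroid plexus sums were seen, 0 of all 34443 probes were called on 4 arrays, and so 0 members and 0 genes of any list.

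Uncalled probes near 0 changed sign. With 75th percentile scaling Creb1 A_52_P174396 was at -0.0838, Crtc2 A_55_P2112180 at -0.0167 and Crtc2 A_51_P520980 at 0.0343. With normexp Crtc1 was at -0.0166 and Crtc2 A_51_P520980 at 0.0828. With the GC correction, with and without the block, Creb1 A_55_P2804962 was at 0.0452, Crem A_52_P460957 at -0.0133, Crem A_51_P423976 at 0.15 and Crtc2 A_55_P2112180 at -0.11. Without both replicate 1 arrays Crem A_52_P460957 was at -0.0865 and Crtc2 A_51_P520980 at 0.11. With an array left out, the ranges were -0.0049 to 0.15 for Creb1 A_52_P174396, -0.0372 to 0.13 and -0.0822 to 0.0135 for the Crem probes A_52_P460957 and A_51_P423976, -0.12 to 0.11 for Crtc1, -0.22 to 0.10 for Crtc2 A_51_P520980 and -0.0181 to 0.0827 for Crtc3 A_55_P2066478.

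Over the whole array, 2888 probes were called higher and 2893 lower. These counts were 5036 and 3635 with 75th percentile scaling, 1805 and 1976 without a filter, 1703 and 1969 with the GC correction, 34 and 25 with the methods' t-test, 2 and 8, 1 and 12 and 1 and 4 without vehicle array 1, 2 and 3, and 979 and 1428, 2074 and 2078 and 1536 and 2483 without GSK-J4 array 1, 2 and 3. In the lists, 75th percentile scaling gave 2 relatives, 6 kinases, 4 brakes and 3 targets called higher and 1 target lower. Normexp gave 1 kinase higher and 3 brakes lower, against 2 brakes lower in the main fit. The GC correction gave 3 relatives higher, 0 and 0 coactivators and CRTC regulators, 1 brake lower and 0 targets lower. With the replicate block each of these counts was 0. With an array left out, counts ran from 0 to 1 for relatives higher, coactivators higher and lower, kinases lower, CRTC regulators lower, brakes higher and targets higher and lower, from 0 to 2 for kinases higher, from 0 to 3 for brakes lower, and stayed at 0 for CRTC regulators higher. The causes of these shifts were not tested. The weaker signal over background on the GSK-J4 arrays limits what can be read from dim probes.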

Other observations

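Around the members, probes of a gene that did not represent it in the lists were called in further genes, all named after their values were seen. Of 3 Ensembl probes of Ppp3cb, a catalytic subunit of calcineurin, 2 fell, by 0.61 (adjusted p = 0.0293) and 0.98 (adjusted p = 0.0144), and the other differed by 0.04, while its representative RefSeq probe differed by -0.23. A second probe of Ppp3cc, on a predicted RefSeq record, fell by 0.76 (adjusted p = 0.0164), the same direction as its representative probe. Pkib, an inhibitor of protein kinase A like Pkia, rose by 0.98 on a RefSeq probe (adjusted p = 0.0326), with other RefSeq probes at -0.17 and 0.23, neither called, while its representative probe on an Ensembl record was at -0.53 (adjusted p = 0.0515). An Ensembl probe of Pde4a fell by 1.17 (adjusted p = 0.0448) against 0.19 on its representative probe. Among relatives and coactivators, a RefSeq probe of Creb3l2 rose by 0.46 (adjusted p = 0.037), a RefSeq probe of Med1 fell by 0.31 (adjusted p = 0.0465) and a GenBank probe of Ncoa1 fell by 0.65 (adjusted p = 0.0496), with representative probes at 0.0955, 0.22 and -0.0519, none called. In each of these the groups compared are 3 arrays against 3 on separate slides.

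The comparison rests on 3 mice per group, on whole hypothalamus and on 1 slide per group, so treatment and slide cannot be told apart. The member results depend on which probe of a gene is read, and probes were not placed in exons or transcripts here. Calls did not survive the loss of a vehicle array, and the part of choroid plexus tissue on vehicle array 1 was not tested. The arrays measure RNA, whereas CREB and CRTC proteins are regulated chiefly by phosphorylation, which was not analysed here.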
